A study of Homo sapiens with 6 samples.

Results

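The 6378 peaks described here are those on chromosome 14 in the peak lists of 4 6mA-IP-seq libraries, out of 143552 peaks in all. N6-methyladenine (6mA) is adenine with a methyl group on its amino nitrogen, and 6mA-IP-seq maps it by pulling down sheared genomic DNA with a 6mA antibody and sequencing what is bound, so that a bound segment appears as a peak of fragments over the local background. All libraries came from MDA-MB-453, a human line derived from breast cancer. The control group was transfected with a scramble siRNA and the si-N6AMT1 group with an siRNA against N6AMT1, each at 10 nM for 48 hours, and each group had 2 immunoprecipitated libraries and 1 input library. Peaks of control replicate 1, control replicate 2, si-N6AMT1 replicate 1 and si-N6AMT1 replicate 2 numbered 1366, 1513, 1732 and 1767 on chromosome 14, and values below follow that order unless stated. A peak averages over the cells of a culture, so a change in the share of cells that carry a modified segment and a change in its level per cell cannot be told apart. The knockdown is transient and the peak lists hold no transcript level, so the fall of N6AMT1 was not analysed here. The files of the inputs were not analysed here either.

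N6AMT1 has been described as a methyltransferase for 6mA and ALKBH1, which lies on chromosome 14, as a demethylase. The amount of 6mA in human nuclear DNA is debated, and antibodies used in such pulldowns are known to bind some simple repeats. Chromosome 14 is acrocentric: its short arm is unassembled in hg19, which leaves 88289540 assembled bases of 107349540, from position 19000001 to near the end of the long arm. The long arm carries the immunoglobulin heavy chain and T cell receptor alpha loci, a cluster of serpin protease inhibitors and an imprinted cluster from DLK1 to DIO3. Chromosome 14 was chosen by its peak density in an earlier reading of the same lists, so its density is given as a description with no test against other chromosomes.

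The regions below are among the highest ranked of their class by within-list position, taken as the lowest over the libraries that called them. They show which letters lie under strong shared peaks and under peaks of 1 group. That lowest position was at percentile 99.3 to 99.7 of the list for the shared regions. It was 66.6 to 74.5 for those of control only and 86.9 for the one of si-N6AMT1 only. Overlapping peaks of the 4 libraries were merged into regions, and each sequence is the 121 bases centred on a region's summit (GRCh37, plus strand). Capitals mark bases inside a 4-letter word that occurs at least 5 times in those 121 bases. The first 3 regions were called in all 4 libraries.
chr14:103387319-103387439: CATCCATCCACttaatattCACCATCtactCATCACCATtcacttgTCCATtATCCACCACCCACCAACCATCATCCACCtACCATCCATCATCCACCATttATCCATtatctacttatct
chr14:95724791-95724911: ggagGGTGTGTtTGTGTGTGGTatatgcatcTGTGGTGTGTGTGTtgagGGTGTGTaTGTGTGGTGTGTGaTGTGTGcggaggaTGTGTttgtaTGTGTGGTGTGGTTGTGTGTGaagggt
chr14:105290986-105291106: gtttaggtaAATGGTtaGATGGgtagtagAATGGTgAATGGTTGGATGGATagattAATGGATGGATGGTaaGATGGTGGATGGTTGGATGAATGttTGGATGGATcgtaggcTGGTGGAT
The next 3 regions were called in both control libraries and in neither si-N6AMT1 library.
chr14:87568937-87569057: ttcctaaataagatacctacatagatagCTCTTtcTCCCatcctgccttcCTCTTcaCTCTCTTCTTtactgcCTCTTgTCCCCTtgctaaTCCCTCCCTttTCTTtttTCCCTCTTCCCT
chr14:56577589-56577709: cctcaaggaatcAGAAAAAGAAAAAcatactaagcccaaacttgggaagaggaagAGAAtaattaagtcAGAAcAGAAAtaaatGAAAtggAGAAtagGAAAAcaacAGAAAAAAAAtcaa
chr14:67066039-67066159: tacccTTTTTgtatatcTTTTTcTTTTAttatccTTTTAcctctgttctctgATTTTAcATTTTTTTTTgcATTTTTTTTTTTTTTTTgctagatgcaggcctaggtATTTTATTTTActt
The last region was called in both si-N6AMT1 libraries and in neither control library, and it is not the highest ranked of its class.
chr14:96982589-96982709: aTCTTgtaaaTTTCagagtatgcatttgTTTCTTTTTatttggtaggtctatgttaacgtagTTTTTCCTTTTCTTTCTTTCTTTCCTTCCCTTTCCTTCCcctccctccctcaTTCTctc

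The 121 bases at the summits of these 3 shared regions were made largely of short words repeated many times. The region at chr14:103384544-103388592 spanned 4049 bp of intergenic sequence 1.62 kb from AMN, which encodes amnionless, a part of the vitamin B12 receptor. Its 121 bases held the word CATC 9 times, and its fold enrichment was 25.3, 19.1, 18.5 and 15.8, the highest of the chromosome in control replicate 1. Fold enrichment is the fragment pileup at the summit over the local background, with 1 added to each. The region at chr14:95724214-95725602 lay in an intron of CLMN, which encodes calmin, and held TGTG 22 times, with folds of 22.8, 18.2, 18.2 and 12.3. The region at chr14:105290556-105291595, 19.997 kb from ZBTB42, held ATGG 11 times, with folds of 19.9, 18.3, 16.1 and 15.8. In all 3 of these regions si-N6AMT1 replicate 2 had the lowest fold. The groups did not overlap in the CATC and ATGG arrays, where control was higher, and overlapped in the TGTG array. Over the whole series, 24.3% of regions called in all 4 libraries had a lower fold in both si-N6AMT1 libraries.

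The regions shown that were called in 1 group only had lower folds. In control, chr14:87568661-87569227 lay 735 kb from GALC, the gene of galactosylceramidase, with folds of 9.58 and 9.08. The region chr14:56577366-56577861 lay 6.88 kb from PELI2, which encodes a ubiquitin ligase of innate immune signalling, with folds of 9.28 and 9.31. The region chr14:67065889-67066404 lay in an intron of GPHN, which encodes gephyrin, with folds of 8.72 and 9.84. Their letters were stretches of C with T, of A with G and of T, interrupted by other sequence. In si-N6AMT1, chr14:96982445-96982852 lay in an intron of PAPOLA, the gene of poly(A) polymerase alpha, with folds of 9.04 and 8.28. This single region does not stand for its class, and the classes are compared below by the share of repeated sequence. No difference in fold can be given for these regions, because a library without a call has no value.

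The first comparison asked whether the number and strength of peaks differed between groups. Chromosome 14 had a mean of 1439.5 ± 104 control peaks against 1749.5 ± 24.7 after si-N6AMT1 (± SD, n = 2 libraries each), a difference of 310 peaks or 21.5%, and both si-N6AMT1 libraries lay above both control libraries. An exact permutation test, two-sided over all 6 ways to assign the libraries, gave p = 0.33, which is the smallest value it can give. The lists as a whole were longer in si-N6AMT1, with 30451, 33410, 38847 and 40844 peaks. As a share of its list, chromosome 14 held 4.49%, 4.53%, 4.46% and 4.33%, lower in both si-N6AMT1 libraries by 0.115 percentage points (exact permutation p = 0.33). When every library was held to 30451 peaks of highest −log10 p, chromosome 14 had 1366, 1376, 1354 and 1357 peaks, and the difference turned to −15.5 peaks. The libraries also differed in depth. The relative number of fragments, recovered from the background of the caller, was 1, 1.32, 1.38 and 1.5, and peaks per unit of relative depth were 1366, 1143.5, 1250.7 and 1178, with overlapping groups (difference −40.4, exact permutation p = 1). The part of depth in the higher si-N6AMT1 counts was not tested.

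The median strength of the peaks overlapped between groups by the deposited measures and not by the plain ratio of pileup to background. The median fold was 7.32, 6.78, 6.86 and 6.64, a difference of −0.303 (exact permutation p = 0.667). On the other autosomes it was 7.41, 6.94, 6.93 and 6.64. Without the 1 added to pileup and background, the median ratio was 12.2, 10.2, 10.03 and 9.52, lower in both si-N6AMT1 libraries (difference −1.42, exact permutation p = 0.33), in the reverse order of relative depth. The median −log10 p, a measure of how unlikely the pileup is under the local background, was 13.3, 13.3, 13.4 and 13.1, a difference of −0.0679 (exact permutation p = 1). The median summit held 17, 18, 19 and 19 fragments, so a single peak rests on few fragments. The median width was 450, 450, 442 and 447 bp, and peaks covered 735, 815, 917 and 957 kb, which is 0.833% to 1.08% of the assembled chromosome.

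Peaks were dense on chromosome 14 relative to most autosomes. Per assembled Mb it carried 15.5, 17.1, 19.6 and 20.01 peaks, against 10.8, 11.9, 13.8 and 14.5 on the other autosomes together, a ratio of 1.38 to 1.45. Among the 22 autosomes it ranked 2, 2, 2 and 1, next to chromosome 20 with 15.7, 17.5, 19.7 and 19.9. The differences between these neighbours were smaller than those between replicates. Per base of total length, the unassembled short arm included, the density was 12.7, 14.1, 16.1 and 16.5 and the rank 8, 7, 8 and 9, so the high rank rests on leaving out unassembled sequence. Density moved with the local background that the caller assigned under the peaks. The median background of chromosome 14 peaks was 1.25, 1.27, 1.32 and 1.30 times the genome background of the library, which placed it 6, 6, 5 and 6 among autosomes. Across the 22 autosomes, which share library and depth, Spearman's rho between density and this ratio was 0.851, 0.869, 0.891 and 0.868, while with GC content it was 0.0254 to 0.155. The part of the background in the density was not tested.

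**Figure D1:**
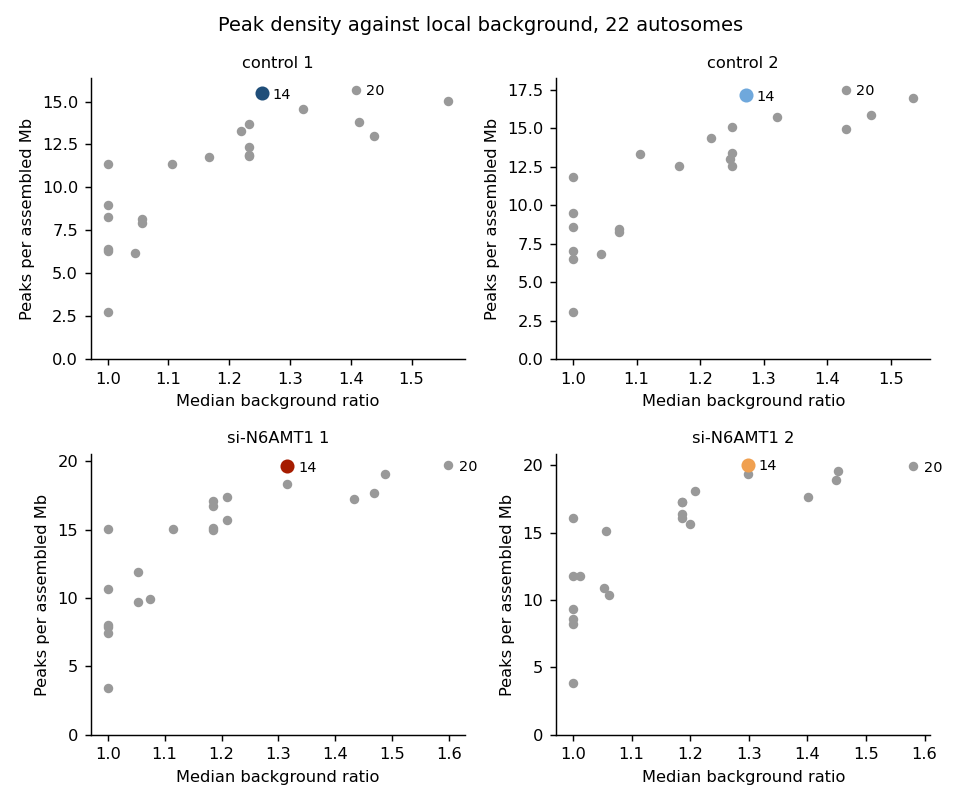
Peaks per assembled Mb (vertical) against the median local background under the peaks, as a ratio to the genome background of the library, for 22 autosomes (points) in each of 4 libraries. Chromosome 14 (coloured) lies beside chromosome 20 at the top of the density axis in every panel, at a lower background ratio than chromosome 20.

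The density was uneven along the long arm and kept its shape between libraries. Of the windows of 5 Mb counted from base 1, 17 held at least 2.5 Mb of assembled bases. Their mean density ran from 11.0 peaks per Mb at 75 to 80 Mb to 24.65 at 100 to 105 Mb, and 16 of the 17 lay above 12.5, the median of the 538 autosomal windows. Window densities in any 2 libraries had a Spearman's rho of 0.860 to 0.912. The densest window, 100 to 105 Mb, held 110, 115, 138 and 130 peaks, and it contains the imprinted DLK1 to DIO3 cluster. The window at 35 to 40 Mb held 98, 121, 132 and 125 peaks and contains FOXA1 and MIPOL1. The window at 80 to 85 Mb held 101, 112, 119 and 129 peaks and contains CEP128. The sparsest window, 75 to 80 Mb, held 45, 46, 62 and 67 peaks, although it contains the first part of NRXN3, the longest of the genes described below. The windows at 70 to 75 Mb (57, 66, 79 and 68 peaks) and at 55 to 60 Mb (62, 55, 67 and 82 peaks) were also sparse.

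Density had little relation to gene content across these windows. Spearman's rho between mean density and GC content was 0.0833, with the number of protein-coding genes −0.166, and with the share of genic bases −0.0564 (17 windows). With the mean background ratio it was 0.725, and Pearson's r was 0.709. The ratio was 1.56 at 80 to 85 Mb and 1.13 at 25 to 30 Mb, where the mean density was 14.05. Neighbouring windows are not independent, so these are descriptions.

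**Figure D2:**
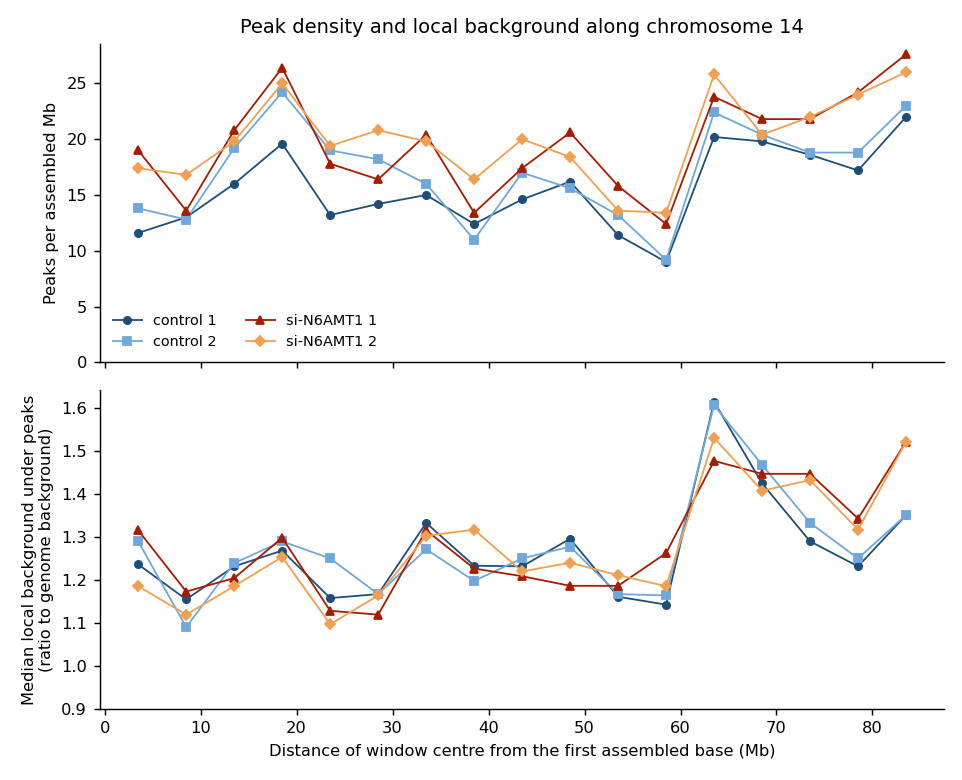
Upper panel, peaks per assembled Mb in 17 windows of 5 Mb. Lower panel, median local background under peaks as a ratio to the genome background of the library (axis starts at 0.9). The horizontal axis is the distance of the window centre from the first assembled base in Mb. The 4 libraries rise and fall together, and both panels step up after the sparsest window.

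More peaks in both si-N6AMT1 than in both control libraries were found in 14 of the 17 windows, beside 75.3% of all autosomal windows, and fewer in 0, beside 0.186%. As a share of the chromosome 14 peaks of each library, which removes the length of the list, both si-N6AMT1 libraries lay above both controls in 4 windows (20 to 25, 50 to 55, 75 to 80 and 95 to 100 Mb) and below in 2 (80 to 85 and 85 to 90 Mb). Over all autosomal windows these shares of a chromosome's peaks separated in 23.4% and 18.4%. The ratio of mean si-N6AMT1 to mean control peak number ran from 1.05 at 85 to 90 Mb, with 99, 102, 109 and 102 peaks, to 1.43 at 20 to 25 Mb, with 58, 69, 95 and 87 peaks. Next highest were 75 to 80 Mb (1.42) and 95 to 100 Mb (1.34), and next lowest 45 to 50 Mb (1.15) and 30 to 35 Mb (1.15). The bins at the ends of the assembled sequence, of 1 and 2.29 assembled Mb, held 4, 7, 11 and 11 peaks and 42, 43, 55 and 61 peaks and enter no window count.

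The second comparison asked which regions were shared. The peaks merged into 3163 regions on chromosome 14, a median of 16.2 kb apart. A single library called 1490 of them (47.1%, beside 49.6% over the whole series), 2 libraries 705, and 3 libraries 432. All 4 libraries called 536 (16.9%, beside 16.7%). Both control and neither si-N6AMT1 library called 100 (3.16%, beside 2.62%), and both si-N6AMT1 and neither control library called 185 (5.85%, beside 5.86%). The si-N6AMT1 lists were longer, and with equal lists the counts were 136 in control only and 127 in si-N6AMT1 only. Equal lists ended at a −log10 p of 5.01, 7.93, 9.83 and 9.98, so they differed in stringency. The part of list length in the class sizes was not tested. The control replicates had 54.1% and 59.96% of their peaks in common with each other, and the si-N6AMT1 replicates 55.3% and 56.6%. Libraries of different groups shared 47.7% to 62.4%, with a mean of 54.6% against 57.0% within control and 56.0% within si-N6AMT1, and the range across groups took in both ranges within groups.

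Strong peaks were shared more often than weak ones. Regions called once had median folds of 6.35, 5.98, 6.09 and 5.85, and regions called in all 4 libraries 8.80, 8.18, 8.26 and 8.18. Their median width rose from 396 to 701.5 bp. When the peaks of each library were ranked by fold and divided into 4 equal parts, the highest part was shared with all other libraries in 71.1%, 67.7%, 61.7% and 61.5% of cases, and the lowest part in 20.5%, 16.1%, 12.2% and 11.5%.

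**Figure D3:**
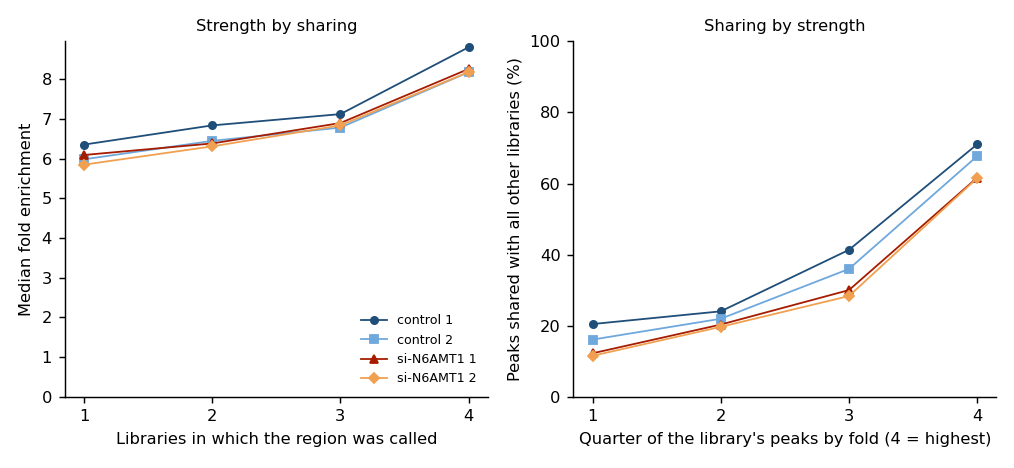
Left, median fold enrichment of regions by the number of libraries that called them. Right, percent of peaks shared with all other libraries for the 4 equal parts of each library by fold (4 is the highest). Both measures rise from left to right in each library.

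Within the 536 regions called in all 4 libraries the fold can be compared region by region. The fold was higher in both si-N6AMT1 libraries in 94 regions (17.5%, beside 16.9% of such regions over the whole series) and lower in both in 133 (24.8%, beside 24.3%). The median ratio of si-N6AMT1 to control fold was 0.964 on chromosome 14 and 0.966 on the other autosomes. The 1 added to pileup and background weighs more in shallow libraries. The plain ratio of pileup to background in these regions had medians of 14.5, 12.3, 12.1 and 11.5, lower in both si-N6AMT1 libraries (exact permutation p = 0.33), in the reverse order of the depth of the libraries. Other measures of the same regions went the other way. The median −log10 p was 17.8, 17.5, 18.04 and 17.9, higher in both si-N6AMT1 libraries (exact permutation p = 0.33). The median pileup was 21, 22, 23.5 and 24 fragments, also higher in both (exact permutation p = 0.33).

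The sequences under the summits had features that the choice of chromosome did not use. An uninterrupted run of at least 10 A (or T on the other strand) lay within the 100 bases around 19.2%, 17.1%, 21.6% and 21.6% of summits, against 3.37% to 3.93% of windows 1000 bp to each side. A run of at least 25 purines, A and G in any order (or pyrimidines), lay at 25.1%, 22.2%, 25.2% and 24.8% of summits against 0.826% to 1.13% of flanking windows. A run of 25 A counts under both features. At least 10 units of CA (or TG) lay at 4.61%, 3.97%, 2.94% and 3.0% of summits, against 0.220% to 0.397%, and both si-N6AMT1 libraries were below both controls. The other autosomes separated the same way, with 3.68%, 3.34%, 2.58% and 2.45%. The motif CAGGCTGG, searched on both strands, was at 3.0%, 2.64%, 4.33% and 4.19% of summits against 3.61% to 4.02% of flanks, and reached its highest share 100 to 250 bp from the summit. It was higher at the summits of both si-N6AMT1 libraries than of both control libraries, as it was on the other autosomes (2.68%, 2.76%, 3.90% and 3.98%). The other features were highest at the summit itself.

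**Figure D4:**
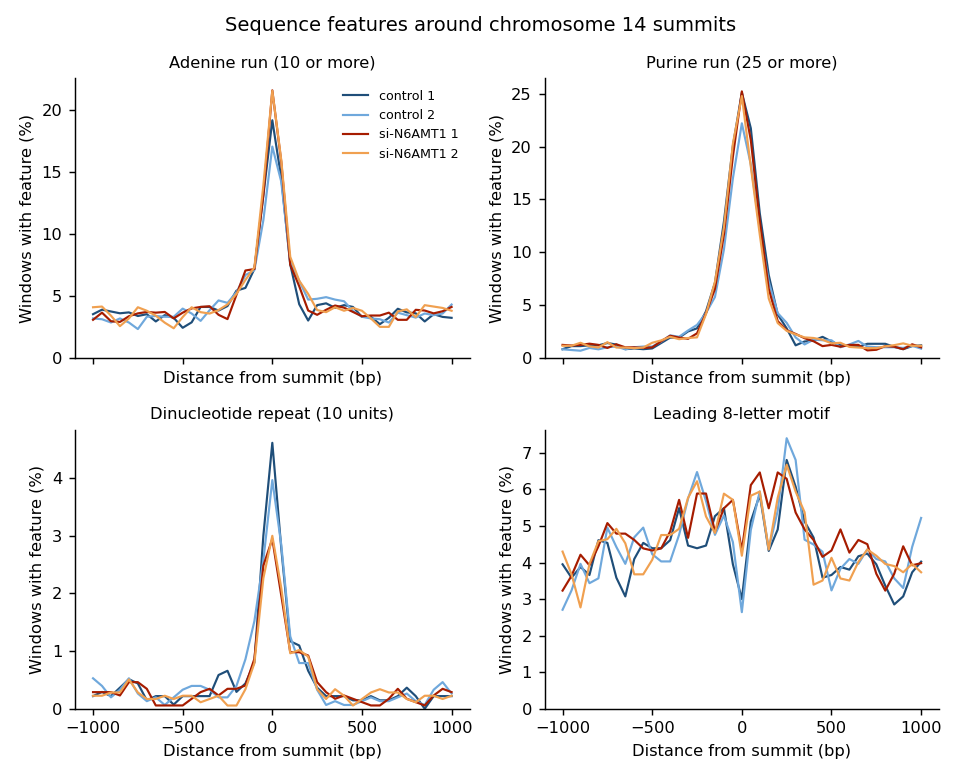
Percent of 100-bp windows that hold each of 4 sequence features, by distance from the summit of chromosome 14 peaks in bp, for 4 libraries (vertical scales differ). Adenine runs, purine runs and the dinucleotide repeat peak at the summit, and the leading motif does not.

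Repetition of any short word was then counted, a measure chosen after the sequences had been seen. A window of 100 bases holds 97 overlapping 4-letter words, and a window was called repeated when at most 50 of them were distinct. Repeated windows made up 39.5%, 34.96%, 35.1% and 33.8% of chromosome 14 summits and 1.72% to 1.93% of flanks. On the other autosomes they made up 42.8%, 39.1%, 39.0% and 37.0% of summits, above chromosome 14 in every library. Regions differed widely with sharing: 17.9% of those called once were repeated, 23% of those in control only, 29.7% of those in si-N6AMT1 only and 55.2% of those in all 4 libraries. Divided into 4 equal parts by strength, the regions of all 4 libraries were repeated in 29.1%, 39.6%, 63.4% and 88.8% of cases from weakest to strongest. The strongest regions also lay towards the end of the chromosome. Beyond 90 Mb lay 19.6% of the assembled bases, 21.5% of all regions, 31.2% of the regions of all 4 libraries and 55.2% of the strongest part of those. How much of the fold comes with repeated sequence was not tested.

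Summits fell in introns and between genes about as often as bases do. Introns held 53.5%, 53.8%, 54.5% and 53.5% of summits and 54.1% of the assembled bases (difference between groups 0.335 percentage points, exact permutation p = 1). Intergenic sequence held 43.4%, 43.0%, 42.3% and 43.5% of summits and 39.2% of bases. Exons held 0.512%, 0.859%, 1.04% and 0.962% of summits against 3.31% of bases. Promoters, taken as 1000 bp to each side of a transcription start site, held 2.56%, 2.31%, 2.19% and 2.09% against 3.38% of bases. The promoter share was lower and the exon share higher in both si-N6AMT1 libraries (differences of −0.294 and 0.315 percentage points, exact permutation p = 0.33 for each). These shares rest on 35, 35, 38 and 37 promoter summits, a number that was no lower in si-N6AMT1, and on 7, 13, 18 and 17 exon summits. On the other autosomes the promoter share was 2.496%, 2.12%, 2.22% and 2.21%, with overlapping groups, and the exon share was 0.7999%, 0.780%, 0.767% and 0.719%, lower in both si-N6AMT1 libraries.

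At least 1 peak lay in the body of 228, 227, 255 and 256 of the 616 protein-coding genes of chromosome 14 (difference 28, exact permutation p = 0.33), and with equal lists the difference was 5. Peaks in every library were found in 160 genes (26.0%, beside 20.9% of autosomal protein-coding genes), and 296 genes had none. The former had a median length of 123 kb and the latter of 10.6 kb. Chromosome 14 was chosen by its peak density, so its larger share of genes with a peak is not independent of that choice. GPHN, which encodes the scaffold gephyrin of inhibitory synapses, had 23, 28, 31 and 25 peaks. NRXN3, a presynaptic adhesion gene, had 20, 19, 24 and 15. PRKD1, a protein kinase gene, had 12, 16, 19 and 18. CEP128, of the centriole, had 14, 15, 16 and 15. RAD51B, a gene of homologous recombination, had 14, 14, 19 and 13. EGLN3, a prolyl hydroxylase gene that acts on hypoxia-inducible factor, had 13, 14, 12 and 15 over an annotated span of 539 kb. Its regions called in all 4 libraries or in 1 group only were all classed as intergenic, outside the transcripts used to assign introns. Among the 10 genes with most peaks, PRKD1 and UNC79 (described below) had more peaks in both si-N6AMT1 than in both control libraries. The si-N6AMT1 lists were longer as a whole, and 75.3% of autosomal 5-Mb windows separated this way. Windows and genes differ in length and peak number, so that share is no background for genes, and the share of genes is not given here.

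**Figure D5:**
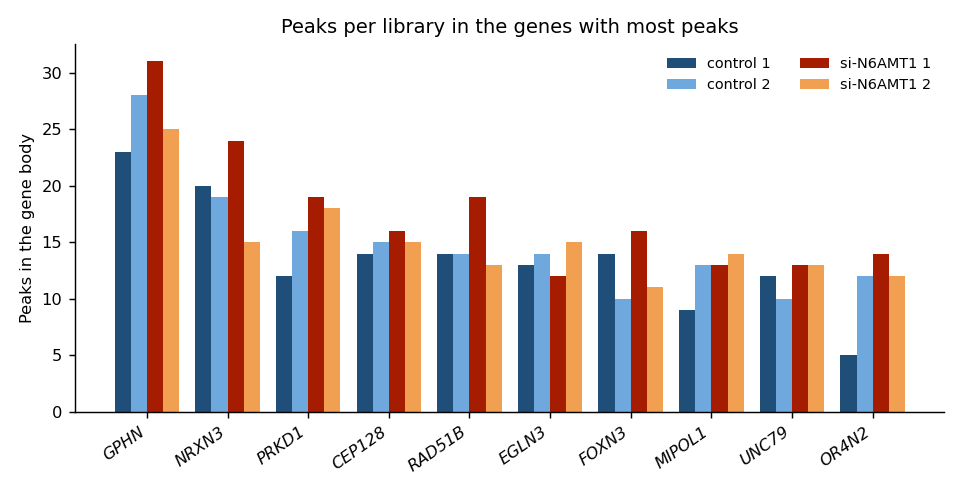
Number of peaks in the gene body (bars) in each of 4 libraries, for the 10 protein-coding genes of chromosome 14 with most peaks. GPHN has the most in every library, with 23 to 31 peaks.

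The same 10 genes included FOXN3, a forkhead repressor gene, with 14, 10, 16 and 11 peaks, MIPOL1 with 9, 13, 13 and 14, and UNC79, of a sodium leak channel complex, with 12, 10, 13 and 13. OR4N2, an olfactory receptor gene, had 5, 12, 14 and 12 over a long annotated span of 111 kb. Its regions called in all 4 libraries or only in si-N6AMT1 were classed as intergenic, except chr14:20283568-20284077 in an intron. The mean density over chromosome 14 was 1.81 peaks per 100 kb. By annotated span, the densest genes of at least 100 kb were OR4N2 (9.66 per 100 kb), MIA2 (6.00), TOGARAM1 (5.35), TXNDC16 (5.13) and MNAT1 (4.57). MIA2 acts in export from the endoplasmic reticulum, TOGARAM1 in cilia, and MNAT1 in the CDK-activating kinase. The sparsest genes of at least 300 kb were NPAS3, a neuronal transcription factor gene, with 1, 4, 4 and 5 peaks (0.395 per 100 kb), RGS6 (0.710), PRKCH (0.826) and MDGA2 (0.838). NRXN3 had the second highest number of peaks and yet only 1.15 per 100 kb.

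Gene lists of chromosome 14 were described by counts, to be read against the 26.0% of its protein-coding genes with a peak in all 4 libraries and the 296 of 616 with none, and against gene length. Of 14 large neuronal and adhesion genes, 13 had a peak in all 4 libraries and 0 had none. These genes were listed for their size, and their 1.47 peaks per 100 kb were below the 1.81 of the chromosome. NOVA1, an RNA-binding protein gene, was missed by si-N6AMT1 replicate 1. Of 27 transcription factor genes, 2 had a peak in all 4 libraries (NPAS3 and ESR2) and 20 had none, among them FOXA1, a pioneer factor of breast cells, and FOS. Many of the latter are short, such as FOXA1 with 6.51 kb and FOS with 3.41 kb, and the list had 0.505 peaks per 100 kb. ESR2, the gene of oestrogen receptor beta, had 4, 2, 3 and 5 peaks and HIF1A, the hypoxia-inducible factor gene, 0, 1, 1 and 2. Of 12 cell cycle genes, 4 had a peak in all 4 libraries (CDKL1, PPP2R5E, NUMB and PPP2R5C) and 4 had none. PPP2R5C, a regulatory subunit gene of protein phosphatase 2A, had 2, 4, 5 and 2 peaks. The kinase gene AKT1 had none. NPAS3 belongs to both the neuronal and the transcription factor list.

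Of 9 genes for methyl enzymes, 7 had no peak, among them ALKBH1 and the arginine methyltransferase gene PRMT5. METTL3, the catalytic subunit gene of the N6-methyladenosine writer of RNA, had 0, 1, 0 and 1 peaks in 2 separate regions. Of 9 DNA repair genes, RAD51B had a peak in all 4 libraries and 5 had none. FANCM, a DNA translocase gene of the Fanconi anaemia pathway, had 3, 3, 0 and 0 peaks. Its regions called only in control were chr14:45607128-45607502 in an exon, with folds of 6.57 and 6.63, and chr14:45610397-45610782 in an intron, with folds of 6.46 and 6.76. MLH3, of mismatch repair, had 0, 0, 2 and 2 peaks. The region chr14:75494370-75495287 was called only in si-N6AMT1, with folds of 9.90 and 7.98. FANCM and MLH3 are given as counts with no test.

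Of 9 serpin genes, 3 had a peak in all 4 libraries and 6 had none. SERPINA9 and SERPINA12 had 1 peak in each library and SERPINA5 had 1, 2, 2 and 1. SERPINA1, the gene of alpha-1 antitrypsin, had none. Of 6 imprinted genes, 3 had a peak in all 4 libraries and 3 had none. DLK1, a paternally expressed Notch ligand gene, had 1, 1, 1 and 1. The maternally expressed noncoding RNA genes MEG3 and MEG8 had 2, 2, 4 and 2 peaks and 3, 3, 3 and 3 peaks. DLK1 and MEG8 thus had the same number of peaks in every library, and MEG3 differed in si-N6AMT1 replicate 1 alone. Equal counts were not always the same regions. The 1 region of DLK1 was called in all 4 libraries, against 2 of 4 regions of MEG8 and 1 of 4 of MEG3.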

How the data were processed

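Genomic DNA from cultured MDA-MB-453 was profiled by 6mA-IP-seq. Sample titles gave the groups, control and si-N6AMT1, each with 2 pulldown libraries and 1 input. Per the methods of the study and the submitters' processing notes, the authors aligned reads to hg19 with Bowtie2 2.3.5, removed duplicates with SAMtools 1.9 and called peaks per library with MACS2 (p-value limit 1e-05). Which input served which call is not given in the sources used here. The deposited fold enrichment is a ratio of pileup to local background at the summit, with 1 added to each. The p and q columns of the deposited lists hold −log10 p and −log10 q at the summit, and the deposited score is a whole number made from a −log10 value. Other deposited columns give start, end and summit.

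Read totals were not used here. Fold and −log10 p together determine pileup and background, and 100% of pileups came out whole within 0.02. The lowest background, 1.05, 1.36, 1.41 and 1.53 fragments, divided by the smallest peak width gave relative depth.

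Peaks were merged where they overlapped by at least 1 bp. The GRCh37 primary assembly and GENCODE v44 lifted to it (basic transcripts of protein-coding and long noncoding RNA genes) gave sequence and genes. Summits went to promoters first, then to exons, introns and intergenic sequence. Gene bodies are annotated gene spans. Named genes were the 10 protein-coding genes with most peaks and the 5 densest and 5 sparsest long ones, with list members. Named regions were the highest ranked of each class and of fold, and some named regions and 1 list member are not reported here. Members, lists and regions were chosen with earlier results of these data known. Groups were compared with a two-sided exact permutation test over 6 assignments (smallest p 0.33), so p-values measure the spread between 2 libraries a group. The tools were samtools 1.23.1 and Python 3.11.15 with pandas 2.3.3, numpy 2.4.6, pysam 0.24.0, matplotlib 3.10.9 and scipy 1.17.1, and functions were tested on simulated data. Alternatives tried were equal lists, a minimum −log10 q of 5, 50% overlap, merging within 500 bp, other windows, promoters and gene flanks, a replicate block and each library left out.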

Additional observations from a re-analysis of the deposited data

How the results depend on the processing

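Of 94 values recomputed under alternatives, 72 kept their direction or stayed near the reported value. With equal numbers of peaks per library, the difference in peak number was −15.5, in median fold 0.110, in median −log10 p 1.39 and in intron share −0.827 percentage points, all of opposite sign to the values reported, and purine runs lay at 26.4% of summits against 24.3%. Peaks per relative depth, an alternative chosen after seeing the data, gave −40.4. The plain ratio of pileup to background, chosen likewise, gave a difference of −1.42 in place of −0.303 for the median fold. At a −log10 q of at least 5 the difference in median −log10 p was 0.116. An overlap of 50% of each peak lowered sharing to 51.7% within control and 51.3% within si-N6AMT1. Windows of 2 Mb gave 9 above control and windows of 10 Mb gave 2, beside 4 of 17 with windows of 5 Mb. The number of windows changes with their size, so these counts cannot be compared directly. The cause of these shifts was not tested.

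Leaving out 1 library loosens the classes by construction. Regions called only in control then numbered 188 to 418, only in si-N6AMT1 304 to 654, and windows above control 5 to 7. Without si-N6AMT1 replicate 1 the intron share difference was −0.177 (0.846 without si-N6AMT1 replicate 2), and without si-N6AMT1 replicate 2 the difference in median −log10 p was 0.0536 (−0.189 without si-N6AMT1 replicate 1). The difference in median fold was −0.0340 without control replicate 1 and −0.573 without control replicate 2. With the replicate block the differences were 310 peaks and 28 genes, exact sign-flip permutation p = 0.5, the smallest 2 pairs allow, and no direction changed. Same-numbered replicates did not deviate together (r = −0.0101 over 3163 regions). With 2 libraries a group, this value cannot settle whether the numbers pair the libraries. Depth limits single peaks, which rest on a median of 17 to 19 fragments.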

Other observations

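The multigene loci of the long arm differed in density. The immunoglobulin heavy chain locus (chr14:106053226-107288019) held 19, 20, 26 and 32 peaks, with 11 of its 39 regions called in all 4 libraries, 4 in si-N6AMT1 alone and 0 in control alone. Over the whole series these classes held 16.7%, 5.86% and 2.62% of regions, and counts this small were not tested. The T cell receptor alpha and delta locus (chr14:22089991-23021099) held 11, 10, 13 and 13 peaks and 2 of its 29 regions were called in all 4 libraries, against 16.9% of the regions of the chromosome. The olfactory receptors beside the centromere (chr14:19377594-20712508) held 12, 26, 33 and 28 peaks, fewest in control replicate 1, and 6 of 47 regions were called in all 4 libraries. The median background there was 1.43 to 1.66 times the genome level, above the 1.25 to 1.32 of the chromosome. Its part in these counts was not tested. Of the 27 olfactory receptor genes of the whole chromosome, 4 had any peak, beside 320 of its 616 protein-coding genes. The olfactory receptor genes had a median length of 5.84 kb, and protein-coding genes without a peak 10.6 kb.

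The serpin A cluster (chr14:94746797-95090392) held 8, 9, 8 and 10 peaks in 12 regions, 7 of them called in all 4 libraries. One of these, at chr14:94985167-94986749 and 1.92 kb from SERPINA12, had folds of 23.7, 17.5, 13.8 and 14.3. They were lower in both si-N6AMT1 libraries than in both controls, as in 24.8% of the chromosome 14 regions of all 4 libraries. The DLK1 to DIO3 cluster (chr14:101192042-102029789) held 20, 18, 26 and 21 peaks, and 11 of its 33 regions were called in all 4 libraries. The widest regions of the chromosome, of 4068, 4049 and 4041 bp, all lay beyond 100 Mb in intergenic sequence and were called in all 4 libraries. The longest stretch without a region, 374.87 kb at chr14:19818357-20193223, lay among the olfactory receptors beside the centromere.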
